A study of Mus musculus with 10 samples.

Results

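The collagen genes of the mouse abdominal aorta were described in its infrarenal part, below the kidney arteries, and its suprarenal part, above them. Members were all genes whose single annotated symbol is Col, a number, a and a number. They came to 41 of the 17991 genes with a single symbol, spread over 25 collagen types and read by 53 probes. Of the 41, 9 belong to the fibrillar types 1, 2, 3, 5 and 11, 8 to the basement membrane types 4, 15 and 18, and 24 to other types. Types 24 and 27, which are fibrillar by structure, are counted among the other types.

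All samples came from male ApoE-/- mice at 14 weeks of age. Loss of apolipoprotein E raises plasma cholesterol in mice and leads to atherosclerosis, and no mice with the gene intact were analysed here. Aortas were pooled from 2 mice at a time and divided into both parts, which gave 5 infrarenal and 5 suprarenal arrays numbered 1, 6, 8, 11 and 12. The study set the infrarenal part against the suprarenal part within each pool. No treatment is named, the RNA is that of whole artery segments, and the spread between single mice is hidden by the pooling.

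Collagens are secreted proteins whose chains wind into long helices and give the artery wall its tensile strength. Fibrillar collagens form the cables of the media and adventitia and are made by smooth muscle cells and fibroblasts. Type 4 collagen is the network of the basement membranes under the endothelium and around each smooth muscle cell, and types 15 and 18 are proteoglycans at their edge. Type 6 forms beaded filaments between cells and fibrils, and type 8 is a short network-forming collagen known from arteries after injury. Before secretion the chains are hydroxylated and folded in the endoplasmic reticulum, and outside the cell they are trimmed and crosslinked.

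Each array listed 36227 probes, of which 36061 were tested, as single-colour intensities scaled to an array median near 1 (1.001 to 1.003). Pairs of arrays had r values of 0.962 to 0.975 over probes, which are no independent replicates. The Apoe probe read -4.14 ± 0.93 log2 units in infrarenal and -3.58 ± 0.74 in suprarenal aorta (SD, n = 5 each), among the dimmest 30% of probes. The RNA amplified per array ranged over 0.34 to 0.54 µg, and pool 1 had 0.44 µg in its infrarenal and 0.54 µg in its suprarenal sample. Pool 12 stood apart from the others: over 17847 brighter probes, the correlation of its regional differences with those of the remaining pools was -0.421, against -0.137 for pool 1 and 0.128 to 0.40 for the rest. The 3 collagen markers Col1a1, Col3a1 and Col4a1 were well above the array median on all 10 arrays. The smooth muscle markers averaged 7.12 to 7.26 log2 units on infrarenal and 7.04 to 7.24 on suprarenal arrays. Markers of neighbouring tissue varied more: the brown fat markers averaged 4.39 to 6.84 on infrarenal and 3.65 to 7.17 on suprarenal arrays, and the skeletal muscle markers 2.28 to 5.71 on infrarenal and 1.11 to 5.83 on suprarenal arrays. Col4a2 had no value on the infrarenal array of pool 6, so pool 6 added nothing to its regional difference. No other collagen value was missing, and none lay at the floor of -5.17 log2 units set for very low intensities.

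No collagen gene differed between the infrarenal and the suprarenal part past the threshold. The comparison used limma on log2 intensities with the pool as a block, so that each pool was set against itself, and called 0 of 36061 probes (0%) at an adjusted p under 0.05. The smallest adjusted p over all probes was 0.110, and the collagen genes lay between 0.639 and 0.996. The infrarenal value was above the suprarenal one for 21 collagen genes and below it for 20, where 7123 of all genes were above and 10868 below. The median difference was 0.0021 log2 units, against -0.049 over all genes. An unadjusted p under 0.05 was reached by 2 of 41 collagen genes, against 8.05% of all genes. They were Col4a4, at 0.25 ± 0.10 log2 units (SE), and Col6a5, at -0.26 ± 0.11. The count was 0 collagen genes with no replicate block (7.65% of probes), with RNA input in the model (8.5% of probes) and without pool 8 (5% of probes). The number of arrays limits the precision, but most intervals were narrow: 28 of the 41 95% intervals lay within 0.5 log2 units of 0 on both sides, a 1.41-fold difference. The intervals of 39 lay within 1 log2 unit, and the exceptions were Col7a1 and Col24a1, both among the dimmest 30% of probes. The median half-width was 0.265 log2 units for collagen genes and 0.313 for all genes. Without pool 12, the comparison again called no probe, and 5 collagen genes (Col5a3, Col11a2, Col4a4, Col6a5 and Col8a1) reached an unadjusted p under 0.05 where 10.9% of probes did.

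**Figure D1:**
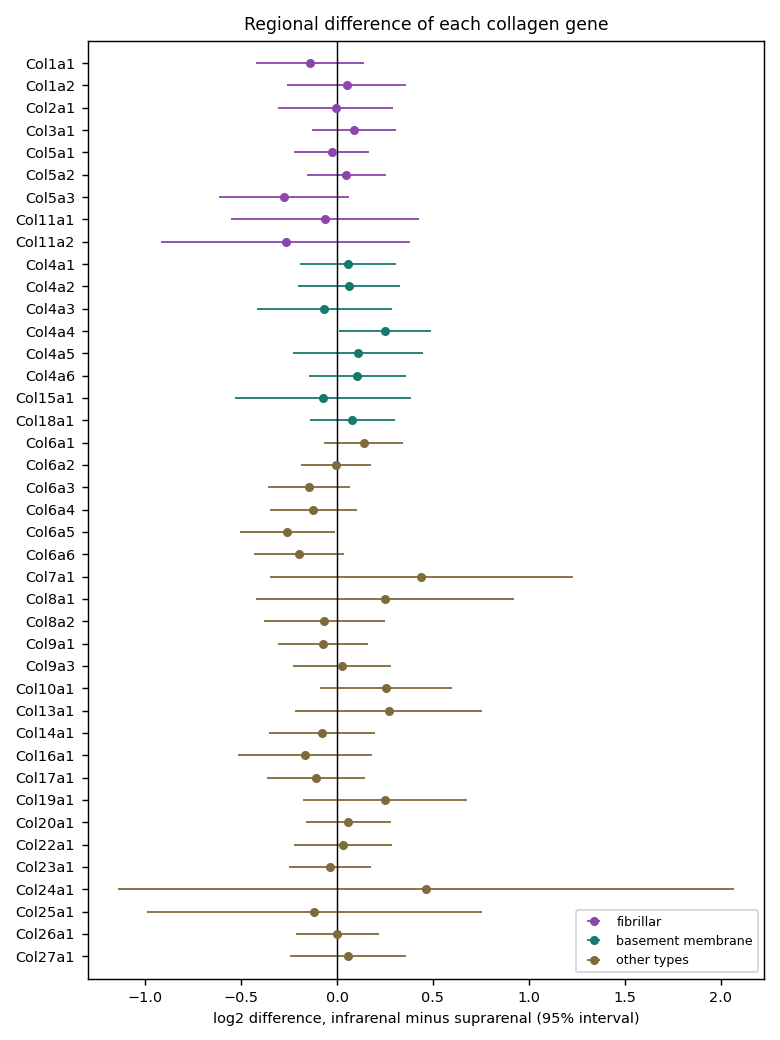
Log2 difference of each of the 41 collagen genes, infrarenal minus suprarenal, with its 95% interval from the limma fit, coloured by class. The intervals of Col4a4 (0.25) and Col6a5 (-0.26) leave out 0 before adjustment over all probes, and those of the dim genes Col7a1 and Col24a1 reach beyond 1 log2 unit.

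The sign of the difference was the same in all 5 pools for few genes. Col4a4 and Col10a1 read higher in the infrarenal part in every pool, 2 of the 40 collagen genes with all values, where 2.94% of all genes did. Col6a5 and Col6a6 read lower in every pool, again 2 of 40, where 6.29% of all genes did. For none of the 41 collagen genes did the infrarenal arrays lie clear of the suprarenal ones: 0.372% of all genes had all infrarenal arrays above and 0.884% had them below. The groups therefore overlapped for every gene described here.

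Among the classes, fibrillar collagens had a median regional difference of -0.028 log2 units, with 3 of 9 higher and 6 lower. Basement membrane collagens had a median of 0.071, with 6 of 8 higher, and the other types had a median of -0.0017, with 12 of 24 higher. Of all 17991 genes, 7123 read higher and 10868 lower. The median of the basement membrane class was 0.27, 0.31, 0.12, -0.26 and -0.09 in pools 1, 6, 8, 11 and 12. That of the fibrillar class was -0.06, 0.18, -0.01, -0.33 and 0.05. The pools thus pointed both ways in both classes, with an SD over pools of 0.24 and 0.19 log2 units. The median over all genes was between -0.10 and 0.03 in each pool.

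More collagen genes reached a small p between the pools than between the regions. A moderated F test over the 5 pools, in the same model, called 5 of 36060 probes (0.0139%) and no collagen gene, and the smallest adjusted p of a collagen gene was 0.314, for Col5a1. At an unadjusted p under 0.05, it picked 13 of the 41 collagen genes, against 7.29% of all genes. They were Col1a1, Col5a1, Col5a2 and Col5a3 among the fibrillar, Col4a1, Col4a2, Col4a4, Col4a6 and Col18a1 among the basement membrane, and Col6a1, Col6a2, Col6a3 and Col26a1 among the other types. Among the brightest 25% of genes it was 10 of 16 collagen genes against 10.96% of genes. Without pool 1, 7 collagen genes reached this level, where 3.51% of all genes did. With no variance trend, where the spread of each probe is drawn toward a common value and not one that follows intensity, 8 did (5.49% of all genes). With RNA input in the model, 15 did (8.18% of all genes). These genes were not shown to differ between pools after adjustment. Genes read on the same arrays can vary together, so the counts of genes between pools, here and below, are a description and not independent results. Each pool has 1 array per region, so animals, harvest and array handling cannot be told apart in a difference between pools.

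Of these 13 genes, which the pool test itself picked, pool 1 had the lowest mean in 11 and pool 12 the highest mean in 11. The share of all genes picked by that test with the same order was not counted, so these 2 counts are a description. Both arrays of pool 1 were the lowest of the 10 for Col1a1, Col5a1, Col5a3, Col4a1, Col15a1, Col18a1, Col6a1, Col6a2, Col6a3 and Col8a2. That is 10 of the 40 collagen genes with all values, against 6.36% of all genes. Within the brightest 25% of genes it was 7 of 15 collagen genes, against 9.90% of genes. Both arrays of pool 12 were the highest of the 10 for Col4a4, Col6a2 and Col9a3, 3 of 40 against 1.73% of all genes. In whole tissue, fewer cells of a type and less RNA per cell cannot be told apart.

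**Figure D2:**
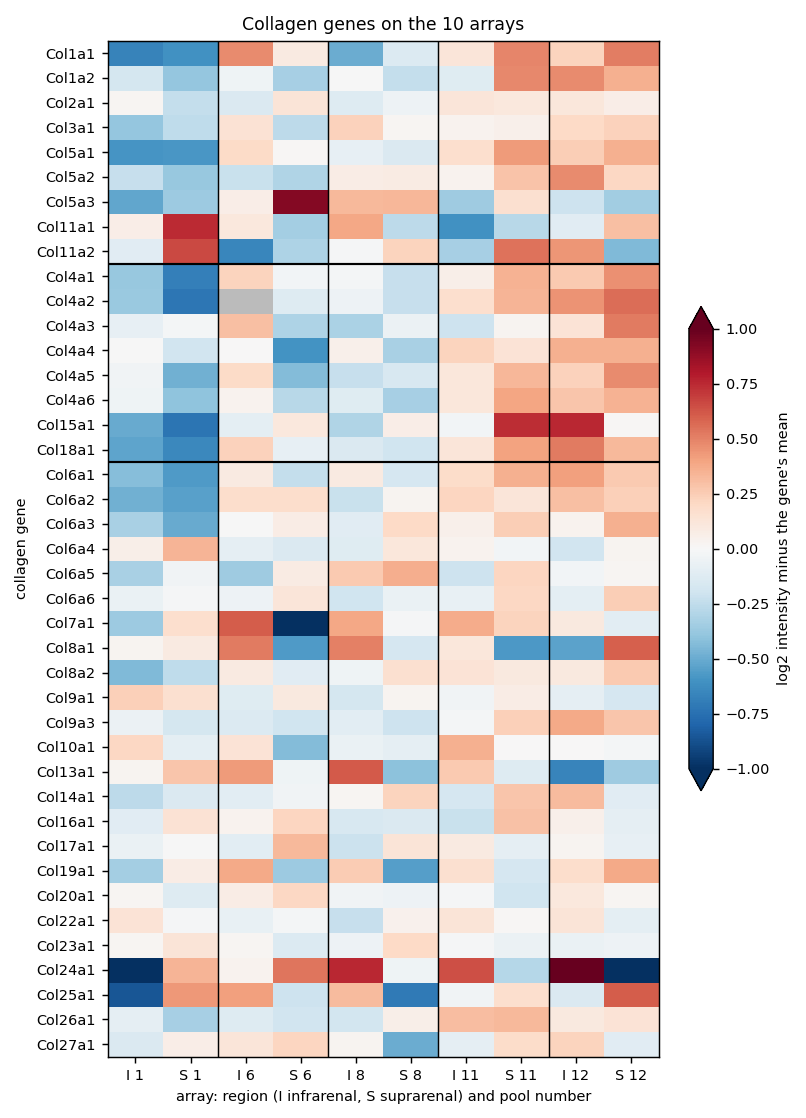
Log2 intensity of the 41 collagen genes on the 10 arrays, each minus the gene's own mean, with colours clipped at 1 log2 unit and the missing Col4a2 value in grey. The left columns (pool 1) are blue for most bright fibrillar, basement membrane and type 6 genes, and the right columns (pool 12) are red for most of them.

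The median deviation of a class from its genes' own means restates the same values by array and is no separate support. The 9 fibrillar genes stood at -0.23, 0.06, -0.0021, 0.03 and 0.22 log2 units on the infrarenal arrays of pools 1, 6, 8, 11 and 12. On the suprarenal arrays they stood at -0.36, -0.26, -0.05, 0.28 and 0.23. Both regions of pool 1 were thus at the low end and both of pool 12 at the high end. The 8 basement membrane genes stood at -0.23, 0.19, -0.13, 0.11 and 0.32 on infrarenal and at -0.56, -0.20, -0.21, 0.34 and 0.41 on suprarenal arrays. The 24 other genes kept within -0.10 to 0.11, and all genes within -0.045 to 0.07. On the suprarenal arrays, the other genes stood at -0.005 in pool 1 and 0.02 in pool 12. RNA input was 0.44 and 0.54 µg in the infrarenal and suprarenal samples of pool 1, and 0.51 and 0.35 µg in those of pool 12, and its part in this order was not tested. The 6 fibroblast markers averaged 5.76 and 5.56 log2 units in the infrarenal and suprarenal samples of pool 1, inside the range of the other arrays (5.54 to 5.89). The 6 smooth muscle markers averaged 7.12 and 7.04 in pool 1, and 7.04 was the lowest of the 10 arrays, with 7.26 the highest. The brown fat markers averaged 6.84, 4.39, 5.62, 4.92 and 5.60 on the infrarenal arrays of pools 1, 6, 8, 11 and 12. On the suprarenal arrays they averaged 7.02, 7.04, 6.34, 7.17 and 3.65. The part of these cell types in the pool differences was not tested.

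**Figure D3:**
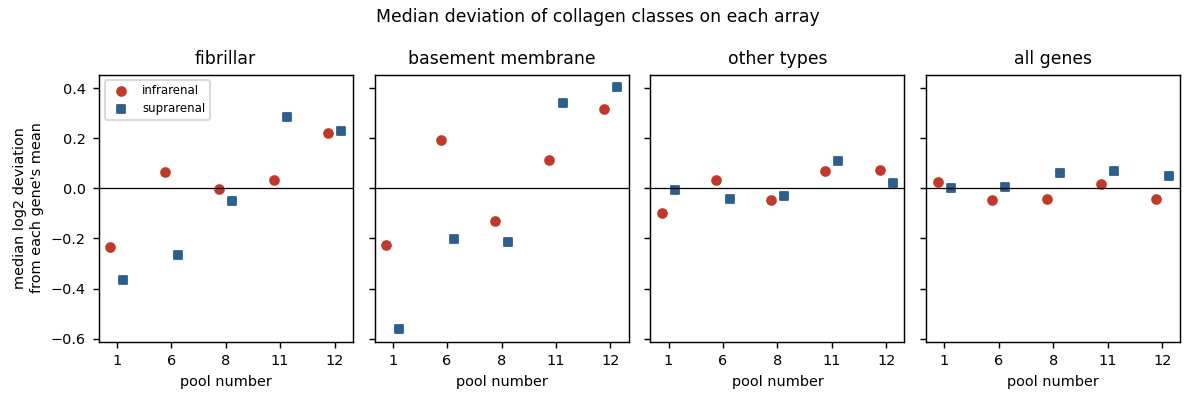
Median deviation of each collagen class, and of all genes, from the genes' own means on each array (log2 units), by pool number, with infrarenal arrays as circles and suprarenal arrays as squares. Fibrillar and basement membrane genes are lowest in pool 1 (down to -0.56) and high in pool 12 (up to 0.41). All genes stay within -0.045 to 0.07, where the scaling of each array's median tends to hold them.

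The fibrillar collagens are taken first, with intensities given in the order of pools 1, 6, 8, 11 and 12 and levels of different probes not set against each other. Col1a1 and Col1a2 are the chains of type 1 collagen, the main cable-forming collagen of the adventitia. Col1a1 read 6.01, 13.2, 6.74, 10.3 and 11.1 in infrarenal aorta, against 6.27, 10.1, 8.66, 13.4 and 13.6 in suprarenal aorta. The pool 1 arrays were the lowest pair, and the infrarenal array of pool 8 lay close to them. Its regional difference was -0.14 ± 0.12 log2 units (SE, adjusted p = 0.741), and its pool means spanned 2.00-fold between pools 1 and 12 (adjusted p = 0.446, 0.00262 before adjustment). Col1a2 read 46.8, 51.4, 52.8, 48.6 and 73.2 in infrarenal aorta, against 40.4, 41.9, 44.8, 73.9 and 67.50 in suprarenal aorta. The highest arrays were suprarenal pool 11 and infrarenal pool 12, and the infrarenal array was the higher one in 4 of 5 pools, all but pool 11. Its regional difference was 0.05 ± 0.13 (adjusted p = 0.922).

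Type 3 collagen, made of Col3a1 alone, gives large arteries their resistance to rupture, and its loss in humans causes the vascular form of Ehlers-Danlos syndrome. Col3a1 read 207, 299, 317, 278 and 310.4 in infrarenal aorta, against 227, 225, 275, 279.5 and 317 in suprarenal aorta. The lowest were infrarenal pool 1, suprarenal pool 6 and suprarenal pool 1, and the remaining arrays lay close together. The difference was 0.09 ± 0.10 log2 units (adjusted p = 0.785), with an interval of -0.13 to 0.31.

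Type 5 collagen starts fibrils and sets their width. Col5a1 read 12.03, 20.7, 17.1, 20.3 and 21.51 in infrarenal aorta, against 12.1, 18.3, 16.4, 24.3 and 23.2 in suprarenal aorta. Both pool 1 arrays lay below all others and close to each other, and its regional difference was -0.03 ± 0.08 (adjusted p = 0.935). Between pools the span was 1.85-fold (adjusted p = 0.314, 0.000845 before adjustment), and the p of a dimmer second probe was 0.765 before adjustment. Col5a2 read 53.1, 53.49, 65.6, 63.9 and 86.4 in infrarenal aorta, against 47.9, 50.54, 66.01, 75.96 and 71.9 in suprarenal aorta. Pools 1 and 6 were low in both regions and infrarenal pool 12 was highest, with a regional difference of 0.05 ± 0.09 (adjusted p = 0.886). Col5a3 read 4.24, 6.34, 7.61, 4.73 and 5.24 in infrarenal aorta, against 4.71, 11.4, 7.64, 6.76 and 4.77 in suprarenal aorta. Suprarenal pool 6 stood above the rest, and its regional difference of -0.28 ± 0.15 was the most negative of the 41 genes (adjusted p = 0.649). It was lower in the infrarenal part in 4 of 5 pools, and without pool 12 it was -0.38 (adjusted p = 0.432).

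**Figure D4:**
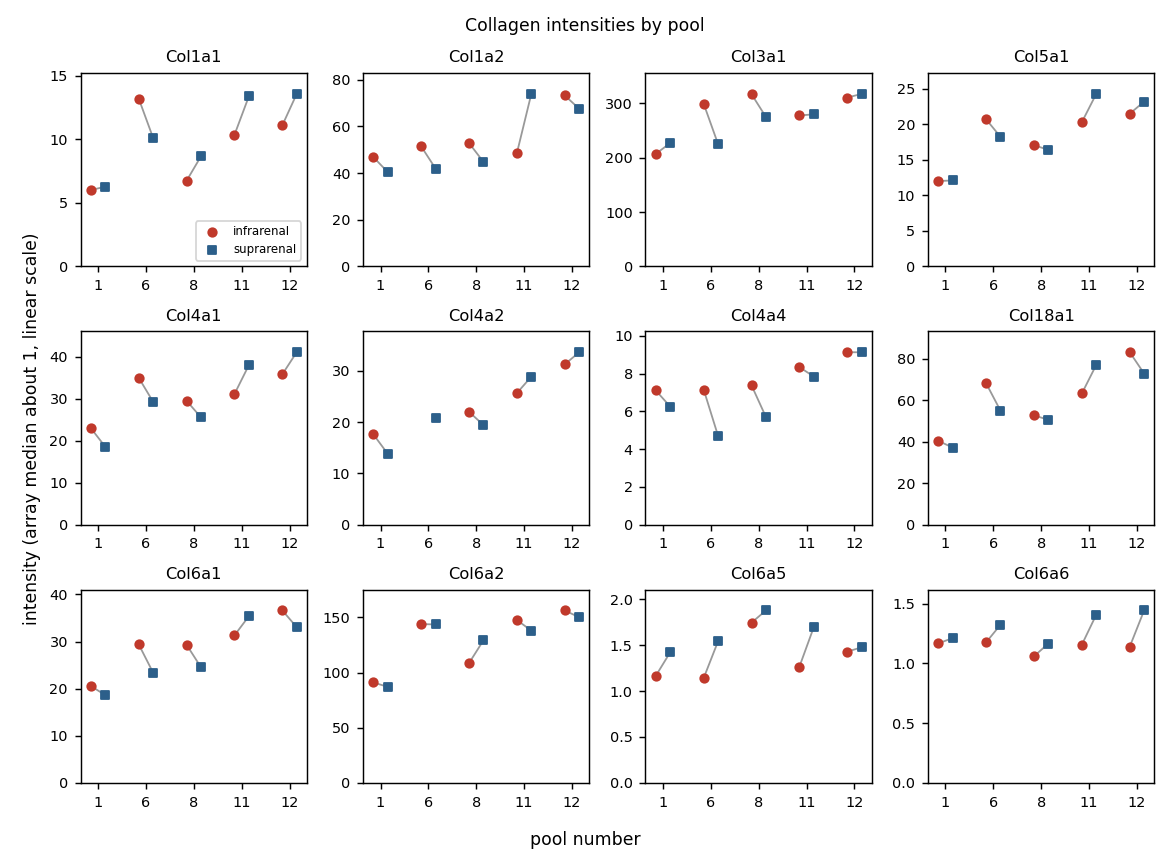
Linear intensity of 12 collagen genes by pool number, with infrarenal (circles) and suprarenal (squares) arrays of a pool joined by a line and every axis starting at 0. Both pool 1 points are the lowest for Col1a1, Col5a1, Col4a1, Col18a1, Col6a1 and Col6a2, while the infrarenal point is the lower one in all 5 pools for Col6a5 and Col6a6 and the higher one in all 5 for Col4a4.

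Type 2 and type 11 collagens are the fibrillar collagens of cartilage, and all 3 genes had a mean below the array median. The 6 cartilage markers averaged -0.97 to -0.17 log2 units on infrarenal and -0.99 to -0.40 on suprarenal arrays, and 3 of them (Acan, Matn1 and Cnmd) were among the dimmest 30% of probes. Their part in these values was not tested. Col2a1 read 0.685, 0.610, 0.619, 0.733 and 0.729 in infrarenal aorta, against 0.573, 0.740, 0.652, 0.728 and 0.705 in suprarenal aorta, a difference of -0.01 ± 0.13 (adjusted p = 0.9899). Col11a1 read 0.876, 0.898, 1.10, 0.549 and 0.776 in infrarenal aorta, against 1.40, 0.660, 0.696, 0.689 and 1.03 in suprarenal aorta, where pool 1 was highest. Its difference was -0.06 ± 0.21 (adjusted p = 0.940). The arrays of Col11a2, one of the dimmest 30% of probes, scattered without order. It read 0.260, 0.179, 0.280, 0.223 and 0.383 in infrarenal aorta, against 0.445, 0.227, 0.329, 0.410 and 0.207 in suprarenal aorta, with a difference of -0.27 ± 0.28 (adjusted p = 0.778).

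Promoter windows of 250 bases before to 50 after the start, taken from RefSeq on GRCm38.p6, are shown for the brightly read fibrillar genes that the table holds, since these are the genes whose levels are compared above. Capitals mark the CCAAT box, which reads ATTGG on the opposite strand, the GC box GGGCGG, which reads CCGCCC there, and the TATAAA box, which reads TTTATA there. All windows lie on the plus strand: Col1a2 at chr6:4505368-4505667, Col3a1 at chr1:45311288-45311587 and Col5a1 at chr2:27886175-27886474.
Col1a2: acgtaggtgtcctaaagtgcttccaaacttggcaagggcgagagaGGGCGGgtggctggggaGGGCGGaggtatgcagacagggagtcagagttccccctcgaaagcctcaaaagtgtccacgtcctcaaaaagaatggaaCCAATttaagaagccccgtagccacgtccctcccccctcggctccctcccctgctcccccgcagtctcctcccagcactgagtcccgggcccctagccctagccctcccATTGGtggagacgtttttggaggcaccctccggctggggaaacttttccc
Col3a1: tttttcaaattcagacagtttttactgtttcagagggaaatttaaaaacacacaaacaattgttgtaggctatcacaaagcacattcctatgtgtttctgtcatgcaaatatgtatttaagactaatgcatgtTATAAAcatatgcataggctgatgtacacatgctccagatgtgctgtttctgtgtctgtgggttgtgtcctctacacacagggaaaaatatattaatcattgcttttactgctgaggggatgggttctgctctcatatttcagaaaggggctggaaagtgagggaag
Col5a1: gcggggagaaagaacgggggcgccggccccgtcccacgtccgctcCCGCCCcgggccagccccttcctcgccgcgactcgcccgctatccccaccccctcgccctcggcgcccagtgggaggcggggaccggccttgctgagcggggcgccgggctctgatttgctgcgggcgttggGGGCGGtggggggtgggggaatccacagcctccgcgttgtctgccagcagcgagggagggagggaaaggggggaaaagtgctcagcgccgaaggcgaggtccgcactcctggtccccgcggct
The Col1a2 window holds 2 CCAAT and 2 GC box matches, the Col5a1 window 2 GC box matches, and the Col3a1 window 1 TATAAA match. A CCAAT match is found in 37.4% of all 32851 promoter windows in the table, a GC box match in 35.7% and a TATAAA match in 13.6%. Of the 41 collagen genes 33 had a window, and of their 36 windows 13 held CCAAT, 22 the GC box and 5 TATAAA. Such matches are letters only, and no binding was measured.

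Type 4 collagen forms the scaffold of basement membranes. Col4a1 and Col4a2 together make the chains of its common form, and in humans mutations of either weaken small vessels. Col4a1 read 23.02, 35.04, 29.6, 31.2 and 35.9 in infrarenal aorta, against 18.6, 29.3, 25.6, 38.04 and 41.1 in suprarenal aorta. Suprarenal pool 1 was lowest, infrarenal pool 1 next and suprarenal pool 12 highest. Its regional difference was 0.06 ± 0.11 log2 units (adjusted p = 0.888), and its pool means spanned 1.86-fold between pools 1 and 12 (adjusted p = 0.619, 0.00681 before adjustment). Col4a2 read 17.6, 22.02, 25.7 and 31.3 in infrarenal pools 1, 8, 11 and 12, against 13.8, 20.9, 19.4, 28.9 and 33.7 in suprarenal pools 1, 6, 8, 11 and 12. Pool 1 was again lowest and pool 12 highest in both regions. Its regional difference was 0.06 ± 0.11 (adjusted p = 0.877) over the 4 complete pairs, with a span of 2.08-fold between pools (adjusted p = 0.423, 0.00212 before adjustment).

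Col4a1 and Col4a2 are transcribed in opposite directions, and their RefSeq starts on GRCm38.p6 are 21 bases apart. The starts are so placed that the first bases of both transcripts overlap. The promoter windows of these genes share 78 bases, at chr8:11312777-11312854, shown on the plus strand with the GC box in capitals because both genes start in it. Each base of this stretch lies in the first 50 bases of Col4a1, of Col4a2 or of both.
Col4a1 and Col4a2 shared stretch: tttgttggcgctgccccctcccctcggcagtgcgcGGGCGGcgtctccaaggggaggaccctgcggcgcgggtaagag
The stretch holds 1 GC box match and neither CCAAT nor TATAAA. The whole window of Col4a1 holds 1 CCAAT and 1 GC box match, and that of Col4a2 holds 1 CCAAT and 3 GC box matches. Across the 9 arrays that read both genes, Col4a1 ranged over 1.14 and Col4a2 over 1.28 log2 units, and their log2 ratio ranged over 0.29. The pair Col4a5 and Col4a6, whose starts are 1343 bases apart, ranged over 0.96 and 0.80, with a ratio range of 0.33. For the 2 chains of type 1 collagen, which lie on different chromosomes, the ratio ranged over 1.01 and the genes over 1.18 and 0.87. In Col4a3 and Col4a4, both on chromosome 1, the ratio ranged over 0.73 and the genes over 0.84 and 0.96. For Col6a1 and Col6a2, both on chromosome 10, the ratio ranged over 0.73 and the genes over 0.97 and 0.84. In Col5a1 and Col5a2, on different chromosomes, the ratio ranged over 0.77 and the genes over 1.01 and 0.85. The part of gene position in these ranges was not tested. The points of each pair share their arrays, and these ranges are a description.

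**Figure D5:**
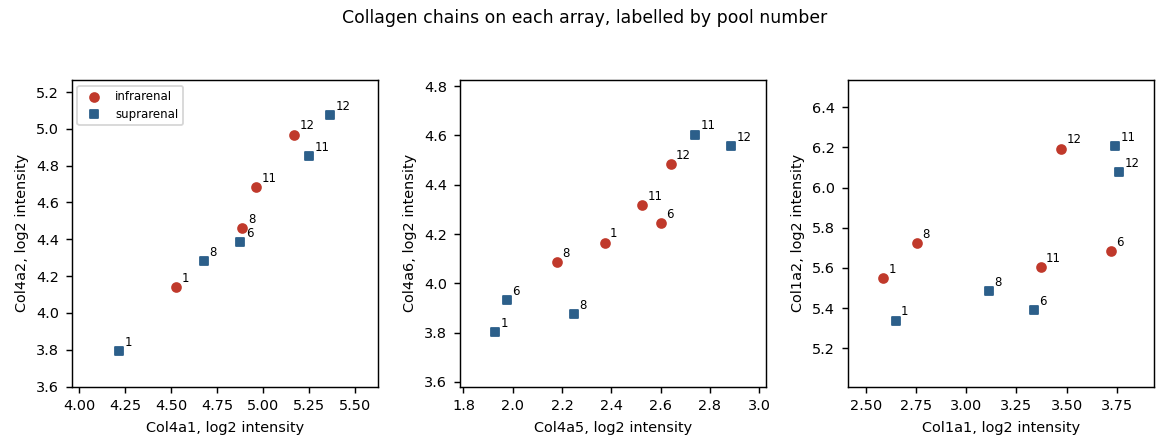
Log2 intensity of paired collagen chains on each array, labelled by pool number, with infrarenal arrays as circles and suprarenal arrays as squares. Col4a1 and Col4a2 (9 arrays) lie along a line from pool 1 to pool 12 with a log2 ratio range of 0.29, Col4a5 and Col4a6 follow with 0.33, and Col1a1 and Col1a2 scatter with 1.01.

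The remaining type 4 chains are used in particular basement membranes, such as those of the kidney filter (Col4a3, Col4a4 and Col4a5) and of smooth muscle (Col4a5 and Col4a6). Col4a4 read 7.11, 7.16, 7.38, 8.35 and 9.14 in infrarenal aorta, against 6.26, 4.71, 5.71, 7.85 and 9.13 in suprarenal aorta. Pools 11 and 12 were high in both regions and suprarenal pools 6 and 8 were low. It read higher in the infrarenal part in 5 of 5 pools, by 0.18, 0.60, 0.37, 0.09 and 0.0008 log2 units, and the mean difference was 0.25 ± 0.10 (adjusted p = 0.639, 0.0435 before adjustment). Without pool 12 the difference was 0.31. A dimmer second probe gave 0.11 (adjusted p = 0.756). The 3 measured kidney markers averaged -1.77 to -0.99 log2 units on infrarenal and -2.15 to -1.31 on suprarenal arrays, and 1 of them, the podocyte gene Nphs1, was among the dimmest 30% of probes. Their part in these values was not tested.

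Col4a3 read 1.59, 2.07, 1.35, 1.46 and 1.85 in infrarenal aorta, against 1.66, 1.36, 1.61, 1.72 and 2.42 in suprarenal aorta, with suprarenal pool 12 highest and a difference of -0.07 ± 0.15 (adjusted p = 0.911). Col4a5 read 5.18, 6.07, 4.53, 5.75 and 6.24 in infrarenal aorta, against 3.81, 3.94, 4.75, 6.67 and 7.39 in suprarenal aorta. Suprarenal pools 1 and 6 were lowest, and suprarenal pools 11 and 12 were highest. Its difference was 0.11 ± 0.15 (adjusted p = 0.830). For Col4a6 the infrarenal arrays read 17.9, 18.9, 16.97, 19.9 and 22.4, against 13.9, 15.3, 14.7, 24.3 and 23.54 in suprarenal aorta. Suprarenal pools 1, 6 and 8 were lowest, suprarenal pools 11 and 12 were highest, and its difference was 0.10 ± 0.11 (adjusted p = 0.778). Both genes were higher in the infrarenal part in pools 1 and 6 and lower in pools 11 and 12.

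Col18a1 encodes the basement membrane proteoglycan from which the fragment endostatin is cut. It read 40.4, 68.2, 52.8, 63.3 and 83.2 in infrarenal aorta, against 37.2, 55.02, 50.6, 77.1 and 72.9 in suprarenal aorta. Pool 1 was lowest in both regions and infrarenal pool 12 highest. The regional difference was 0.08 ± 0.10 log2 units (adjusted p = 0.810), and the pool means spanned 2.01-fold (adjusted p = 0.360, 0.00123 before adjustment). Col15a1, its close relative, read 2.48, 3.28, 2.85, 3.45 and 5.94 in infrarenal aorta, against 2.12, 3.79, 3.68, 5.86 and 3.55 in suprarenal aorta. Pool 1 was lowest again, and infrarenal pool 12 and suprarenal pool 11 were the highest arrays. Its difference was -0.08 ± 0.20 (adjusted p = 0.923).

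Type 6 collagen has a common form made from Col6a1, Col6a2 and Col6a3, whose loss in humans weakens muscle. Col6a1 read 20.6, 29.4, 29.3, 31.3 and 36.6 in infrarenal aorta, against 18.6, 23.4, 24.6, 35.4 and 33.1 in suprarenal aorta. Both pool 1 arrays were below all others, and the infrarenal part was higher in 4 of 5 pools, by 0.14 ± 0.09 log2 units on average (adjusted p = 0.672). Col6a2 read 90.98, 144, 109, 148 and 156 in infrarenal aorta, against 87.1, 144, 129, 138 and 150.0 in suprarenal aorta. Both pool 1 arrays were lowest and both pool 12 arrays highest, with a regional difference of -0.01 ± 0.08 (adjusted p = 0.988) and a span of 1.72-fold between pools (adjusted p = 0.379, 0.00141 before adjustment). For Col6a3 the infrarenal arrays read 27.3, 34.2, 31.7, 35.4 and 35.1, against 24.1, 35.98, 39.4, 40.6 and 43.8 in suprarenal aorta. Pool 1 was lowest in both regions, and its difference was -0.15 ± 0.09 (adjusted p = 0.670). The pool means of Col6a1 and Col6a3 spanned 1.78-fold and 1.53-fold (adjusted p = 0.446 and 0.758).

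Col6a4, Col6a5 and Col6a6 are further members of the family, built like the Col6a3 chain. All 3 had a lower mean in the infrarenal part. Col6a5 read 1.17, 1.14, 1.74, 1.26 and 1.43 in infrarenal aorta, against 1.42, 1.54, 1.88, 1.69 and 1.48 in suprarenal aorta. The infrarenal array was the lower one in 5 of 5 pools, with differences of -0.29, -0.43, -0.11, -0.42 and -0.05 log2 units, although pool 8 was high in both regions and the groups overlapped. The mean difference was -0.26 ± 0.11 (adjusted p = 0.639, 0.0418 before adjustment), and a dimmer second probe gave 0.23 (adjusted p = 0.881). Col6a6 read 1.17, 1.18, 1.06, 1.16 and 1.14 in infrarenal aorta, against 1.21, 1.32, 1.17, 1.41 and 1.44 in suprarenal aorta. Its infrarenal arrays were the lower ones in 5 of 5 pools, with a difference of -0.20 ± 0.10 (adjusted p = 0.649), and its second probe gave 0.25 (adjusted p = 0.754). The probes of both genes thus had opposite signs, but the SE of the second probe was 0.42 for Col6a5 and 0.24 for Col6a6. The sign of the second probes is therefore uncertain, and that of neither gene is settled. Col6a4 read 2.44, 2.20, 2.16, 2.40 and 2.06 in infrarenal aorta, against 2.97, 2.12, 2.54, 2.30 and 2.39 in suprarenal aorta, a difference of -0.12 ± 0.10 (adjusted p = 0.720), and its second probe gave -0.02.

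Type 8 collagen is made from Col8a1 and Col8a2. Col8a1 read 1.75, 2.47, 2.44, 1.86 and 1.19 in infrarenal aorta, against 1.84, 1.17, 1.53, 1.16 and 2.61 in suprarenal aorta. Pools 6, 8 and 11 had the higher value in the infrarenal part, by 1.08, 0.67 and 0.68 log2 units, and the difference was -1.13 in pool 12 and -0.07 in pool 1. The mean difference was 0.25 ± 0.29 (adjusted p = 0.802), and without pool 12 it was 0.59 (adjusted p = 0.392). Col8a2 read 0.399, 0.577, 0.527, 0.598 and 0.583 in infrarenal aorta, against 0.457, 0.504, 0.609, 0.582 and 0.651 in suprarenal aorta. Pool 1 was lowest in both regions, and the difference was -0.07 ± 0.14 (adjusted p = 0.900). The log2 ratio of the 2 chains ranged over 1.22, more than either gene (1.17 and 0.71).

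Of the remaining types, those with the smallest p in either comparison were taken. Among the collagens that span the cell membrane, Col13a1, known from the nerve-muscle junction, read 0.637, 0.842, 0.957, 0.752 and 0.397 in infrarenal aorta, against 0.757, 0.606, 0.470, 0.572 and 0.488 in suprarenal aorta. Infrarenal pools 6 and 8 were high and infrarenal pool 12 was lowest, with a difference of 0.27 ± 0.21 (adjusted p = 0.718). Col17a1, a collagen of the hemidesmosomes that anchor epithelial cells, read 8.86, 8.61, 7.98, 9.89 and 9.44 in infrarenal aorta, against 9.27, 11.6, 10.1, 8.70 and 8.74 in suprarenal aorta. Suprarenal pool 6 was highest and infrarenal pool 8 lowest, and the difference was -0.11 ± 0.11 (adjusted p = 0.773). Col7a1, which forms the anchoring fibrils under skin, read 0.211, 0.414, 0.355, 0.351 and 0.291 in infrarenal aorta, against 0.305, 0.105, 0.269, 0.318 and 0.252 in suprarenal aorta. Suprarenal pool 6 was far below the others, and the difference of 0.44 ± 0.34 had an interval of -0.35 to 1.23 (adjusted p = 0.718). Of the 5 keratinocyte and mesothelial markers, 3 (Krt14, Msln and Upk3b) were among the dimmest 30% of probes. The 5 averaged -2.60 to -2.34 log2 units on infrarenal and -2.29 to -1.51 on suprarenal arrays, ranges that do not overlap, and 0 of them were called between regions. Their part in the values of Col7a1 and Col17a1 was not tested.

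Col10a1, a collagen of hypertrophic cartilage, read 0.576, 0.550, 0.478, 0.637 and 0.501 in infrarenal aorta, against 0.467, 0.370, 0.470, 0.50 and 0.492 in suprarenal aorta. The infrarenal array was the higher one in 5 of 5 pools, with suprarenal pool 6 lowest, and the difference was 0.26 ± 0.15 (adjusted p = 0.659). Col9a1 and Col9a3 are chains of a collagen that sits on the surface of cartilage fibrils. Col9a1 read 1.74, 1.36, 1.31, 1.44 and 1.39 in infrarenal aorta, against 1.65, 1.58, 1.502, 1.55 and 1.32 in suprarenal aorta, and had pool 1 highest in both regions. Its difference was -0.07 ± 0.10 (adjusted p = 0.835). The 2 pool 12 arrays were highest for Col9a3, which read 1.01, 0.960, 0.979, 1.04 and 1.37 in infrarenal aorta, against 0.934, 0.917, 0.913, 1.25 and 1.28 in suprarenal aorta, a difference of 0.03 ± 0.11 (adjusted p = 0.954). Col16a1 and Col19a1 are fibril-associated collagens. Col16a1 read 0.458, 0.505, 0.442, 0.422 and 0.511 in infrarenal aorta, against 0.545, 0.575, 0.446, 0.604 and 0.465 in suprarenal aorta, a difference of -0.17 ± 0.15 (adjusted p = 0.750). For Col19a1 the infrarenal arrays read 8.94, 14.7, 13.47, 12.6 and 12.8, against 11.9, 8.79, 7.73, 10.1 and 14.7 in suprarenal aorta. Suprarenal pools 6 and 8 and infrarenal pool 1 were low, and the difference was 0.25 ± 0.19 (adjusted p = 0.704). Col26a1 read 4.32, 4.18, 4.04, 5.67 and 4.92 in infrarenal aorta, against 3.63, 4.02, 4.76, 5.75 and 5.04 in suprarenal aorta. Pool 11 was highest in both regions, and its difference was 0.0021 ± 0.09 (adjusted p = 0.996; between pools 0.837).

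The other 7 genes were Col14a1, Col20a1, Col22a1, Col23a1, Col24a1, Col25a1 and Col27a1. Their regional differences ranged over -0.12 to 0.46, 4 higher and 3 lower in the infrarenal part, with adjusted p-values of 0.851 to 0.943. By their brightest probes none had a p under 0.443 between pools, though Col14a1 reached an unadjusted p under 0.05 there with its probes averaged and with RNA input in the model. Of the 41 genes, 12 were read by more than 1 probe, and in 5 of these the probes differed in sign (Col5a1, Col6a5, Col6a6, Col23a1 and Col25a1). The dim second probe of Col14a1 gave -0.44 (adjusted p = 0.639, 0.0139 before adjustment), where its bright probe gave -0.08, and the p of that second probe between pools was 0.00753 before adjustment.

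Genes that build, trim, bind or break down collagen were then read from 5 lists of 65 symbols, of which 60 were measured. The symbols include Ctgf, an older name of Ccn2, which was measured as Ccn2 only. None of the 60 passed the threshold between regions or between pools, and 1 reached an unadjusted p under 0.05 between regions, against the 8.05% of all genes. Of the 19 measured genes of chain synthesis and folding, 6 read higher and 13 lower in the infrarenal part, with a median of -0.07 log2 units. Of the 11 genes of processing and crosslinking, 4 read higher and 7 lower (median -0.05), and of the 10 receptors, 5 and 5 (median -0.03). The 11 genes of degradation had 5 higher and 6 lower (median -0.05), and the 9 inducers had 2 higher and 7 lower (median -0.06). These medians lie near that of all genes, -0.049, of which 7123 read higher and 10868 lower.

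The smallest regional p-values of each list were as follows. P3h2, which hydroxylates prolines of basement membrane collagen, differed by -0.32 ± 0.15 log2 units, P4ha1, a subunit of the main prolyl hydroxylase, by -0.15 ± 0.08 and the folding isomerase Ppib by -0.13 ± 0.08. The crosslinking enzymes Loxl3 and Loxl1 differed by 0.19 ± 0.09 and -0.08 ± 0.08, and Adamts14, which trims the ends of procollagen, by -0.11 ± 0.11. Itga10, a collagen-binding integrin chain of cartilage, differed by 0.37 ± 0.12 (adjusted p = 0.639, 0.0122 before adjustment), the collagen receptor kinase Ddr2 by 0.28 ± 0.12 and the integrin chain Itgb1 by -0.18 ± 0.08. Pepd, which splits proline dipeptides, differed by -0.12 ± 0.09, the collagenase Mmp13 by 0.39 ± 0.35 and the fibroblast protease Fap by -0.11 ± 0.12. Among the inducers, Tgfbr1 differed by -0.20 ± 0.19, the growth factor Tgfb1 by -0.17 ± 0.07 and its target Ccn2 by -0.14 ± 0.08. All of these fell short of the threshold, with adjusted p-values of 0.639 to 0.781.

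Between pools, 20 of the 60 genes reached an unadjusted p under 0.05, against 7.29% of all genes. They were 8 of synthesis and folding, 4 of crosslinking (Lox, Loxl1, Loxl2 and Loxl3), 3 receptors, 2 of degradation and 3 inducers. Both pool 1 arrays were the lowest of the 10 for 22 of the 59 with all values, against 6.36% of all genes, and for 13 of the 26 in the brightest 25%, against 9.90%. Serpinh1, Lox and Ccn2 are shown from these 22, chosen after their values were seen. Serpinh1, the chaperone that collagen needs to fold, read 57.3, 99.2, 112, 107 and 108 in infrarenal aorta, against 54.1, 108, 113, 118 and 116 in suprarenal aorta. The 2 pool 1 arrays stood apart below the other 8, which lay close together (adjusted p between pools = 0.137, 6.63e-05 before adjustment). Lox, which starts the crosslinking of collagen and elastin, read 12.51, 20.6, 19.48, 16.3 and 17.50 in infrarenal aorta, against 10.9, 16.02, 20.4, 20.6 and 18.2 in suprarenal aorta (adjusted p between pools = 0.725). Ccn2, a matricellular protein induced by transforming growth factor beta, read 105, 171, 122, 137 and 152 in infrarenal aorta, against 109, 168, 159, 159 and 159 in suprarenal aorta (adjusted p between pools = 0.649). The other genes lowest in both parts of pool 1 include the hydroxylases P4ha2, P4ha3, Plod2, P3h1 and P3h2, the transport genes Mia3 and Sec24d, the procollagen protease Bmp1 with its enhancer Pcolce, and the collagen-cleaving membrane protease Mmp14. No single gene passed after adjustment.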

How the data were processed

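Per the labels' protocols, RNA from the artery segments was amplified into biotin-labelled cRNA and stained with Cy5-streptavidin, 1 array per sample. The authors deposited 1 linear intensity per probe, scaled so that each array's median is near 1. Details of scanning, background correction and scaling were not given in the sources used here. Values were missing for 1968 entries and at or below 0 for 1755. Depth does not apply to arrays, and their number limits the precision.

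Intensities below 0.0278 (percentile 1 of positive values) were raised to it, 5328 values in all, and log2 was taken. Probes needed 3 values per region, which dropped 166. Symbols came from the platform annotation, updated by Entrez identifier (21487 of 21615 probes with a single symbol); 681 probes listed several and 13931 none. The probe of highest mean stood for a gene. The regional test was limma 3.58.1 under R 4.3.3 (a mean-variance trend, the pool as a block), two-sided, and the pools were compared by a moderated F test in the same model, both with Benjamini-Hochberg adjustment over all probes at 0.05. Figures were drawn with matplotlib 3.10.9 in Python 3.11.15. The pairing comes from the design, since both parts of a pool are from the same animals. After subtracting region means, the r of paired arrays was 0.245, -0.00837, 0.0213, -0.244 and -0.184 in pools 1, 6, 8, 11 and 12 over brighter probes, and 0.0452, 0.00615, -0.0331, -0.0525 and -0.0921 over all probes. The pools are separate animals.

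The members and lists were chosen with earlier results of these data known. Named were Col1a1, Col3a1, Col4a1, all other members of types 1 to 6, 8, 11, 15 and 18, and of the rest the 6 smallest p-values between regions and the 4 smallest between pools. Col4a2, which lacks 1 value, was kept. Pathway genes were the 3 smallest p-values per list. Alternatives were quantile normalization, an added offset of 0.2701 with no floor, a filter on the dimmest 30% of probes, no replicate block, no variance trend, RNA input as a covariate, all probes of a gene averaged, region left out of the pool test, and each pool left out. The scripts were tested on simulated data with independent noise, built from all probes with no missing value. At an adjusted p under 0.05, they called 38% of the 50 probes shifted by 1 log2 unit between regions. Of 50 probes shifted by 1 log2 unit in pool 1, 2% were called, and of 50 shifted by 2 log2 units, 44%. A gene not called between pools was thus not shown to be level. Sequences are from RefSeq on GRCm38.p6. The files name no genome build.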

Additional observations from a re-analysis of the deposited data

Results flagged for a closer look

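The 34 named collagen genes and 12 marker scores were examined in each region, 92 sets of 5 arrays except 1 set of 4 (infrarenal Col4a2). In 7 of them, all of 5 arrays, an array stood apart from the others by more than Dixon's 95% critical value of 0.71, and chance gives about 5. Col1a2 read 6.19 log2 units on the infrarenal array of pool 12, where the other infrarenal arrays read 5.55 to 5.72. Col9a3 read 0.46 on that same array, against -0.06 to 0.06 on the others. Suprarenal pool 1 read 6.44 for Col6a2, against 7.01 to 7.23. Suprarenal pool 6 read -3.25 for the dim gene Col7a1, against -1.99 to -1.65, and -1.44 for Col10a1, against -1.1 to -1. Of the marker scores, the brown adipocyte score was 3.65 on the suprarenal array of pool 12, against 6.34 to 7.17 on the other suprarenal arrays. The Schwann cell score was 4.83 on suprarenal pool 1, against 4.17 to 4.31. The part of these scores in the collagen values was not tested.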

How the results depend on the processing

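The regional comparison called 0 collagen genes under every alternative run, and it called 0 probes under all but quantile normalization, which called 1. The fit with no replicate block, which leaves out the pairing, also called 0 probes. Leaving out each pool in turn gave 0 probes each time between regions. Between pools, no collagen gene passed under any alternative. The 5 probes called between pools became 0 with no variance trend, 2 with RNA input as a covariate (added after seeing the data) and 1 to 4 without single pools. The 13 collagen genes at an unadjusted p under 0.05 between pools (7.29% of all genes) became 8 with no variance trend (5.49%), 15 after quantile normalization (7.45%), 15 with RNA input (8.18%) and 7 to 14 without single pools (3.51 to 8.72%), the lowest without pool 1. The count of 10 genes with both pool 1 arrays lowest, checked after seeing the data, against 6.36% of all genes, was 10 after quantile normalization (6.85%), 9 with probes averaged (5.9%), and 10 to 13 when pool 6, 8, 11 or 12 was left out (7.18 to 9.11%; 13 and 8.99% without pool 6). The class medians moved by less than their spread over pools. Of the pathway list medians, synthesis and folding moved by more, from -0.07 to 0.05 after quantile normalization. So did the inducers, from -0.06 to -0.136 with probes averaged and -0.145 without pool 6. Processing and crosslinking and degradation turned to 0.06 and 0.07 after quantile normalization, within their spread. Quantile normalization moved the median of all genes to 0.0015, against -0.049.

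Of the 34 named genes, 21 kept their sign in all alternatives, and none of 406 values passed the threshold (smallest adjusted p 0.392). The 13 others, whose differences were at most 0.2 log2 units in size, turned in 21 cases, and the cause was not tested. After quantile normalization Col5a1 was 0.08 and Col6a2 0.14. With probes averaged Col5a1 was 0.03 and Col6a6 0.03, and with RNA input Col26a1 was -0.01. Leaving out each pool in turn gave -0.01 to 0.22 for Col1a2, -0.07 to 0.06 for Col2a1, -0.08 to 0.03 for Col5a1 and -0.01 to 0.12 for Col5a2. It gave -0.24 to 0.09 for Col11a1, -0.01 to 0.14 for Col4a1, -0.03 to 0.14 for Col4a2 and -0.23 to 0.01 for Col4a3. It gave -0.02 to 0.2 for Col4a5, -0.28 to 0.1 for Col15a1, -0.03 to 0.06 for Col6a2 and -0.06 to 0.06 for Col26a1. Among the named genes, the dim Col7a1 and Col11a2 had wide intervals.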
